A study of Homo sapiens with 23 samples.

Results

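NF-kB target genes and inflammatory cytokine genes, 41 in all, were followed in RNA-seq of HCT116, a human colorectal carcinoma cell line. The 41 were taken by name from a fixed list of NF-kB subunits and inhibitors, feedback genes, chemokines, interleukins and acute phase genes, out of 28105 genes with a row in the tables. The list names genes by their known role and not by a value, but it was drawn up with earlier results of these data known, so its counts are not blind to them. Of these, 33 had enough reads to be tested and 8 did not (CCL2, CCL20, IL1A, IL1B, IL6, CSF2, TNF and SAA1). The RNA came from 4 groups of 2 libraries, WT, MLL4 KO, control and BAP1 KO. MLL4, encoded by KMT2D, is a histone H3K4 methyltransferase of enhancers, and BAP1 is a deubiquitinase of histone H2A. The genotype field gives WT for control as well as for WT. The deposited names of the control and BAP1 KO tables carry osTir1, an auxin receptor from plants that serves to degrade tagged proteins. The WT and MLL4 KO tables do not. Control is therefore taken as the reference of BAP1 KO, and whether it is itself an engineered line is not stated in the labels. No treatment is described for the RNA libraries. The labels do not say whether the 2 libraries of a group came from separate cultures or clones, so p-values measure the spread between these samples, which may be technical.

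NF-kB is a family of dimeric transcription factors built from the subunits RELA, RELB, REL, NFKB1 and NFKB2. In resting cells IkB proteins hold the dimers in the cytoplasm, and signals from tumor necrosis factor, interleukin 1 or microbial products lead the IKK kinases to mark the IkB proteins for destruction, after which the dimers bind kB sites near chemokine, cytokine, survival and acute phase genes. Several targets, such as NFKBIA and TNFAIP3, shut the pathway off again. In the gut epithelium the pathway is known for driving neutrophil-attracting chemokines and antimicrobial proteins such as lipocalin 2.

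The stretches just before the annotated starts of LCN2, BIRC3, CXCL1, CXCL2, CXCL3, CXCL8 and IL32 are shown because these tested genes stood out most in control, where the lowest control library was 1.95-fold (CXCL8) to 107.7-fold (LCN2) the highest of the other 6 libraries. IL18 and CXCL16 come next (1.76-fold and 1.56-fold) and have no window in the table used here. TNFAIP2 follows (1.43-fold) and is shown as well, since its window holds no kB or Rel match. The stretches come from RefSeq's GRCh38.p14 windows and are written along the strand of the gene, ending at the base before its start. Capitals mark letters matching the kB consensus of 10 bases, the shorter pattern GGANTTTCC (called the Rel motif here) or TTGCNNAA (the C/EBP motif), searched on both strands, and overlapping matches run together. LCN2 is chr9:128149203-128149452, BIRC3 chr11:102317234-102317483, CXCL1 chr4:73869243-73869392, CXCL8 chr4:73740419-73740568, IL32 chr16:3065253-3065402 and TNFAIP2 chr14:103123311-103123460, all on the plus strand, with CXCL2 at chr4:74099196-74099345 and CXCL3 at chr4:74038690-74038839 on the minus strand.
LCN2: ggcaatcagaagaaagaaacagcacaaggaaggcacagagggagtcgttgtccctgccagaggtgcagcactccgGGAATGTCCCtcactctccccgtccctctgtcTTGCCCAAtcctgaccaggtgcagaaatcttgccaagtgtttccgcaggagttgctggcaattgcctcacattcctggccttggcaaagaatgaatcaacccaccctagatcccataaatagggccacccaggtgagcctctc
BIRC3: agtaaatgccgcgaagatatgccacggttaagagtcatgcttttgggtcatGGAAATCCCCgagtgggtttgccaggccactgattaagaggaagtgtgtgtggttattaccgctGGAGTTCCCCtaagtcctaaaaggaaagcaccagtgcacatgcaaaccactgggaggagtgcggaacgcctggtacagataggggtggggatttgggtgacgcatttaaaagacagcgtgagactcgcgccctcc
CXCL1: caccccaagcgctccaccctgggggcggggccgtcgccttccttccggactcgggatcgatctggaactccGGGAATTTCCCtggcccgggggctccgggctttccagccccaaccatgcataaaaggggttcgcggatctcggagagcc
CXCL2: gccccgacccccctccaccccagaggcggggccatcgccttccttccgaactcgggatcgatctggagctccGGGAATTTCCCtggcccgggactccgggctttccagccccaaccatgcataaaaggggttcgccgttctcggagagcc
CXCL3: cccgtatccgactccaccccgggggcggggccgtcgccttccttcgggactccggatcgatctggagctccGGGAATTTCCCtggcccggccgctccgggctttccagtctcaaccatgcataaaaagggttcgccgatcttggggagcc
CXCL8: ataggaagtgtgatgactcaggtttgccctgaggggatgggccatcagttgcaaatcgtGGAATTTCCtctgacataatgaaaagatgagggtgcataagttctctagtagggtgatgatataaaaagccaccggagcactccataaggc
IL32: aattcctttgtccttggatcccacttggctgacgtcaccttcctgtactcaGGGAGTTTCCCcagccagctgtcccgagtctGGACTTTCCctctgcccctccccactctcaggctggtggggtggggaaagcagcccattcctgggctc
TNFAIP2: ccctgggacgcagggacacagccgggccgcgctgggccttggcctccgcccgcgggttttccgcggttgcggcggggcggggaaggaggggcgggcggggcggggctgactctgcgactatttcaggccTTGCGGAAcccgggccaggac

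CXCL1, CXCL2 and CXCL3 share the run GGGAATTTCCC, whose kB match begins at position -79 in CXCL1 and CXCL3 and at -78 in CXCL2, where -1 is the base before the start. CXCL2 alone of the 3 also has a C/EBP match, at -188 to -181 on the minus strand, which lies before the bases shown. The 150 bases shown for these 3 paralogs were 86.0% to 88.7% identical, against 35.5% to 36.4% for each of them with CXCL8. On chromosome 4 the annotated genes follow in the order CXCL8 (73740569 to 73743716), CXCL1 (73869393 to 73871308), CXCL3 (74036589 to 74038689) and CXCL2 (74097040 to 74099195). CXCL8 has the Rel motif alone, at -91 to -83. LCN2 (chromosome 9, 128149453 to 128153453) has a kB match at -175 to -166 on the minus strand and a C/EBP match at -143 to -136. BIRC3 (chromosome 11, 102317484 to 102339403) has kB matches at -199 to -190 and at -135 to -126, both on the minus strand. In IL32 (chromosome 16, 3065403 to 3069530) a kB match at -99 to -90 is followed by a Rel motif at -68 to -60. Another IL32 window, chr16:3065534-3065783 before its start, has no match and is not shown. TNFAIP2 (chromosome 14, 103121469 to 103137439) has a C/EBP match alone, at -21 to -14, and the start of its window lies inside the annotated gene. NFKBIZ, the next gene in this order, has kB matches in both of its windows. TRAF1 comes after it with no match in its windows, and TNIP1, the last, has a kB match.

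Start windows of 300 bases (250 before the start and 50 from it on) were found for 31 of the 41 genes, 45 windows in all, and the other 10 genes had no window in the table. The kB consensus or the Rel motif was in 23 of the 45 windows (51.1%), against 12.1% of all 35116 windows, and in at least 1 window of 21 of the 31 genes. Taken singly, the kB consensus was in 46.7% of the 45 windows and 11.3% of all windows, the Rel motif in 33.3% and 1.64%, and the C/EBP motif in 13.3% (6 windows) and 10.5%. Such a match is a run of letters and does not show binding. Because the 41 genes were listed for their known role in or under NF-kB, the shares against all windows describe the list and test nothing. REL, NFKB1, TNFAIP3, TNIP1 and IL23A also have kB matches, although none of them passed a test in any comparison below. ICAM1, which passed none either, has a Rel motif at -186 to -178.

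**Figure D1:**
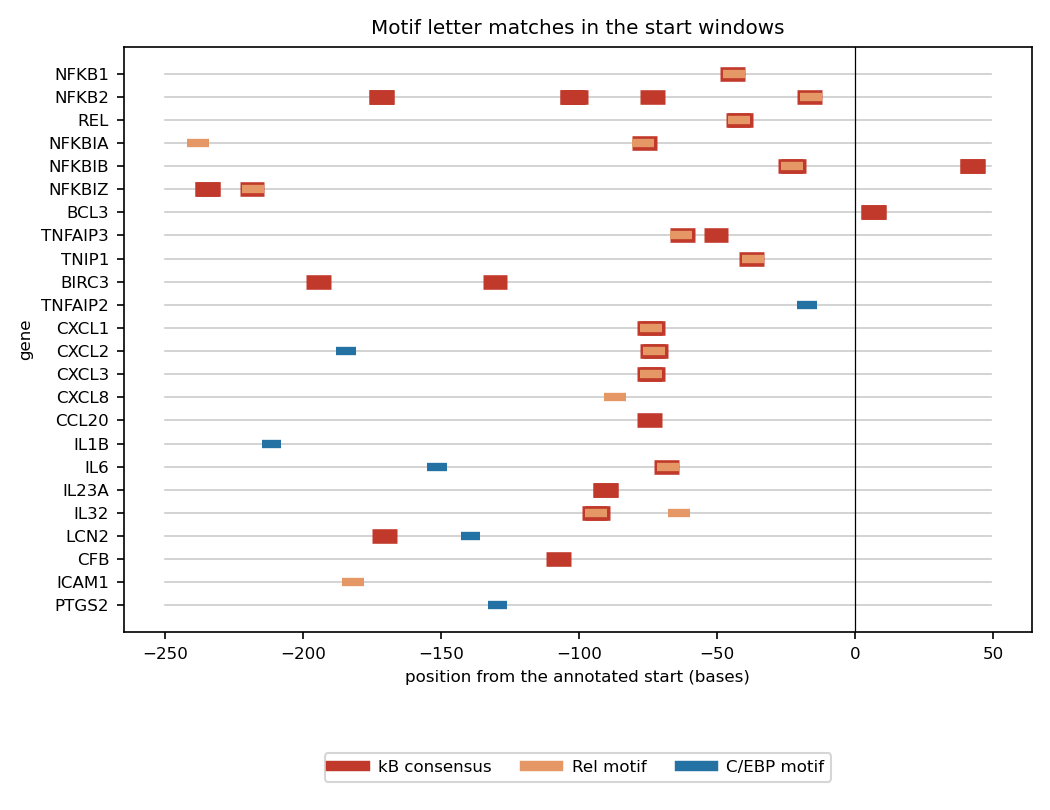
Positions of letter matches in the start windows of the genes that have any, in bases from the annotated start (x axis), 1 line per gene. Red marks the kB consensus, orange the Rel motif GGANTTTCC and blue the C/EBP motif TTGCNNAA. The kB and Rel matches of CXCL1, CXCL2 and CXCL3 lie at nearly the same distance from the start, and of these genes CXCL2 alone has a C/EBP match.

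Read counts summed over genes were 24.8 to 42.2 M per library. KMT2D messenger RNA was not lower in the libraries labelled MLL4 KO (log2 fold change 0.01 ± 0.18, SE, adjusted p = 0.97), nor BAP1 messenger RNA in those labelled BAP1 KO (0.07 ± 0.13, adjusted p = 0.746), so the directions below rest on the labels. Against WT, BAP1 messenger RNA was lower both in control (-0.52 ± 0.13, adjusted p = 0.0141) and in BAP1 KO (-0.45 ± 0.13, adjusted p = 0.0249). All 8 epithelial markers looked at (such as EPCAM, CDH1 and KRT8) were above 1 CPM in every library, where CPM is counts scaled to library size after TMM scaling. Their summed level was 5910 and 5923 CPM in control, against 3751 to 3870 in WT, 5413 to 5482 in MLL4 KO and 3038 to 3597 in BAP1 KO. KRT8, KRT18 and KRT19 made up most of this sum. In MLL4 KO against WT, 4 of the 8 markers had a log2 fold change above 0, and the median was -0.07. The mean of KRT8 was 1770 CPM in WT and 2954 CPM in MLL4 KO, and that of EPCAM 248 and 114 CPM. Of 8 leukocyte markers CD68 alone was above 1 CPM, at 27.3 and 28.2 CPM in control and 4.03 to 9.01 CPM in the other libraries. The fibroblast list was above 1 CPM for COL1A1 alone, with DCN and LUM at 0, and summed endothelial markers stayed at 0.719 to 2.17 CPM. In control 9.44% and 10.71% of all counts fell on the 10 most abundant genes, against 5.11% to 7.33% elsewhere. CD68 and the share of the 10 most abundant genes set control apart from the other groups, while the epithelial sum was also high in MLL4 KO. The part of these shifts in the results below was not tested. In such bulk samples, fewer cells with a transcript and less of it per cell cannot be told apart.

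The control libraries carried the highest levels of LCN2, IL32, BIRC3, TNFAIP2, IL18 and the CXC chemokines. Against WT, 18 of the 33 tested genes were higher in control and 2 lower, among all 16831 tested genes 19.9% and 19.7%. Against that same control, 10 were lower in BAP1 KO and 2 higher (all genes 10.4% and 12.1%). MLL4 KO differed from WT in fewer: 4 were higher and 1 lower (all genes 9.13% and 10.0%). In BAP1 KO against WT, which crosses the WT and control backgrounds so that background and knockout cannot be told apart, 12 were higher and 2 lower (all genes 21.2% and 20.4%). The median log2 fold change of the 33 genes was 0.85 in control against WT, -0.18 in BAP1 KO against control, 0.10 in MLL4 KO against WT and 0.36 in BAP1 KO against WT, where all tested genes had medians of 0.02, 0.01, 0.00 and 0.02. The control libraries enter both their comparison with WT and that with BAP1 KO, so these are not independent of each other. Every count is at an adjusted p under 0.05 by edgeR's quasi-likelihood test with Benjamini-Hochberg adjustment over all tested genes, and values with ± are log2 fold changes with their standard error unless a sentence says otherwise.

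**Figure D2:**
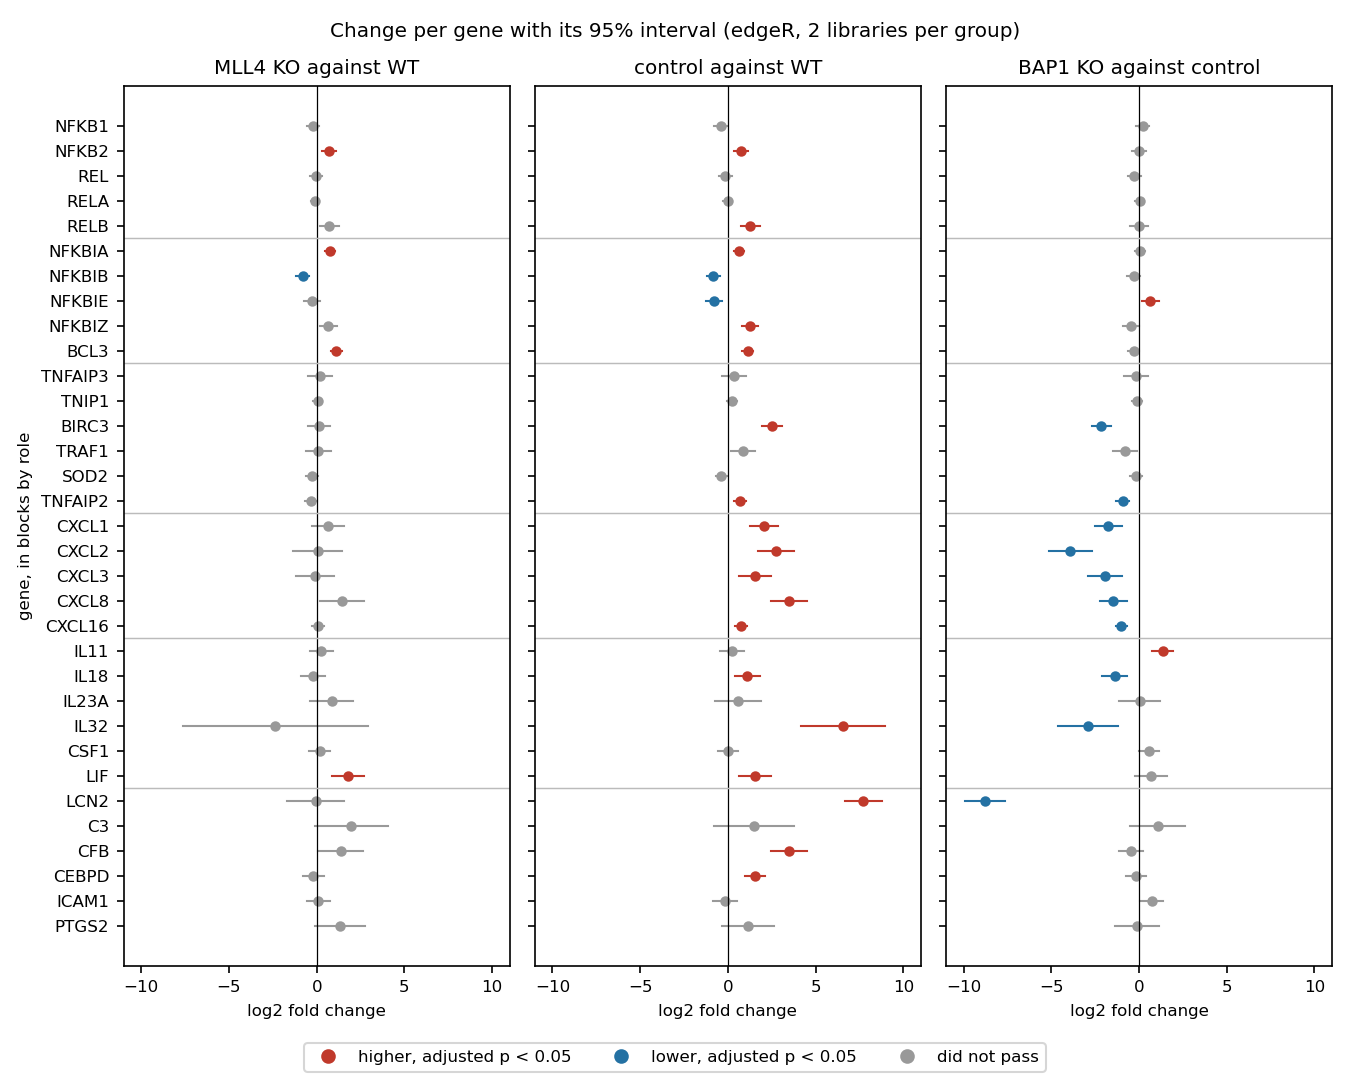
Log2 fold change (x axis) with its 95% interval for the 33 tested genes in MLL4 KO against WT, control against WT and BAP1 KO against control, from 2 libraries per group. Red is higher and blue lower at an adjusted p under 0.05, grey did not pass; LCN2, IL32, BIRC3 and the chemokines are red in the middle panel and blue on the right.

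The counts leaned on single libraries to different degrees. The 5 calls in MLL4 KO against WT all ended when the 4 libraries of that comparison were fitted alone (adjusted p = 0.0569 to 0.111), a fit in which 60 of all genes passed (0.367%). Without MLL4 KO replicate 2 the count was 2, with 2.92% of all genes called. It was 3 without WT replicate 2, control replicate 1 or control replicate 2 (all genes 4.02%, 6.37% and 6.57%). It was 8 without WT replicate 1 or MLL4 KO replicate 1 (all genes 31.5% and 17.1%). For BAP1 KO against control it was 6 without control replicate 1 or 2 (all genes 6.86% and 6.48%, against 22.4% with all libraries). For control against WT it was 13 without control replicate 2 (all genes 19.5%, against 39.6%). The calls over all genes thus moved with the library left out as well.

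Among the Rel subunits, NFKB2 and RELB of the noncanonical arm were higher in control and BAP1 KO than in WT, NFKB2 also in MLL4 KO, and RELA, NFKB1 and REL passed in no comparison. NFKB2, the p100 precursor of p52, had 104 and 89.4 CPM in the WT libraries, 129.9 and 185 in MLL4 KO, 162 and 163 in control, and 144 and 179 in BAP1 KO. The WT libraries were the lowest, and the other 3 groups overlapped. NFKB2 was higher than WT in MLL4 KO (0.71 ± 0.18, adjusted p = 0.0286), in control (0.75 ± 0.18, adjusted p = 0.00937) and in BAP1 KO (0.74 ± 0.18, adjusted p = 0.00965).

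RELB, the partner of p52, had 10.1 and 12.1 CPM in the WT libraries, 13.7 and 23.01 in MLL4 KO, 27.2 and 26.8 in control, and 24.2 and 29.2 in BAP1 KO. Its WT libraries lay below all others, and MLL4 KO replicate 1 was close to them. RELB was 2.42-fold higher in control than in WT (adjusted p = 0.00291) and 2.40-fold higher in BAP1 KO than in WT (adjusted p = 0.00316), while MLL4 KO differed by 0.71 ± 0.24 (adjusted p = 0.0642). Between BAP1 KO and control both genes were near 0, with intervals of -0.41 to 0.39 for NFKB2 and -0.53 to 0.49 for RELB on the log2 scale. RELA, the main activating subunit, had 80.5 to 91.3 CPM over all 8 libraries. NFKB1, the p105 precursor of p50, ranged from 41.1 to 64.7 CPM and REL from 14.3 to 21.2 CPM.

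NFKB2 lost its call in MLL4 KO without any 1 of WT replicate 2, MLL4 KO replicate 2 and the control libraries (adjusted p up to 0.16). In control against WT it was lost without WT replicate 2 or either control library (up to 0.0573), and in BAP1 KO against WT without WT replicate 2 or BAP1 KO replicate 2 (up to 0.0794).

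The IkB genes did not move as 1 group. NFKBIA and BCL3 were higher and NFKBIB lower than in WT in MLL4 KO, control and BAP1 KO, NFKBIZ was higher in control and BAP1 KO, and NFKBIE was lowest in control. NFKBIA encodes IkB-alpha, the classical inhibitor resynthesised after activation, and had 19.97 and 20.5 CPM in the WT libraries, 33.1 and 35.7 in MLL4 KO, 30.2 and 32.9 in control, and 33.5 and 31.4 in BAP1 KO. All 6 libraries outside WT were above both WT libraries. NFKBIA was 1.70-fold higher in MLL4 KO (adjusted p = 0.0104), 1.56-fold in control (adjusted p = 0.00417) and 1.60-fold in BAP1 KO against WT (adjusted p = 0.00319). The call in control was lost without control replicate 2 (adjusted p = 0.0563).

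BCL3, an atypical nuclear IkB protein that works with p50 and p52 dimers, had 17.9 and 16.3 CPM in the WT libraries, 35.9 and 38.8 in MLL4 KO, 36.2 and 38.3 in control, and 27.3 and 32.98 in BAP1 KO. WT was again the lowest group, and MLL4 KO and control overlapped. BCL3 rose by 1.13 ± 0.14 in MLL4 KO (adjusted p = 0.00503), was higher by 1.12 ± 0.14 in control (adjusted p = 0.000465) and by 0.82 ± 0.14 in BAP1 KO against WT (adjusted p = 0.00228). Between BAP1 KO and control the difference was -0.31 ± 0.14 (adjusted p = 0.148).

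NFKBIZ, a nuclear IkB protein needed for secondary NF-kB targets such as LCN2, had 6.24 and 5.12 CPM in the WT libraries, 7.56 and 10.3 in MLL4 KO, 13.9 and 13.1 in control, and 9.48 and 10.5 in BAP1 KO. Control was the highest group and WT the lowest. It was 2.39-fold higher in control than in WT (adjusted p = 0.00179) and 1.76-fold higher in BAP1 KO than in WT (adjusted p = 0.0146), the latter call being lost without WT replicate 2 or BAP1 KO replicate 2 (adjusted p up to 0.0747). MLL4 KO against WT gave 0.65 ± 0.21 (adjusted p = 0.0611) and BAP1 KO against control -0.44 ± 0.20 (adjusted p = 0.149).

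NFKBIB, which encodes IkB-beta, had 56.7 and 77.2 CPM in the WT libraries, 40.2 and 36.6 in MLL4 KO, 37.2 and 37.8 in control, and 27.6 and 32.8 in BAP1 KO. Both WT libraries were above all others. NFKBIB fell by 0.80 ± 0.16 in MLL4 KO (adjusted p = 0.0165), was lower in control by a log2 fold change of -0.84 ± 0.16 (adjusted p = 0.00371) and in BAP1 KO against WT by -1.15 ± 0.17 (adjusted p = 0.000906). Its MLL4 KO call was lost without WT replicate 2 or MLL4 KO replicate 2 (adjusted p = 0.0672 and 0.0878). NFKBIE, which encodes IkB-epsilon, had 12.7 and 17.9 CPM in the WT libraries, 12.2 and 13.4 in MLL4 KO, 8.97 and 8.97 in control, and 12.6 and 15.6 in BAP1 KO. It was lowest in control, with -0.77 ± 0.21 against WT (adjusted p = 0.0152) and a rise of 0.65 ± 0.21 in BAP1 KO against control (adjusted p = 0.049). The latter call was lost in 10 of 18 alternatives, RLE scaling and leaving out any 1 of the MLL4 KO, control and BAP1 KO libraries among them (adjusted p up to 0.235), and the former without WT replicate 2 or either control library (up to 0.0975).

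**Figure D3:**
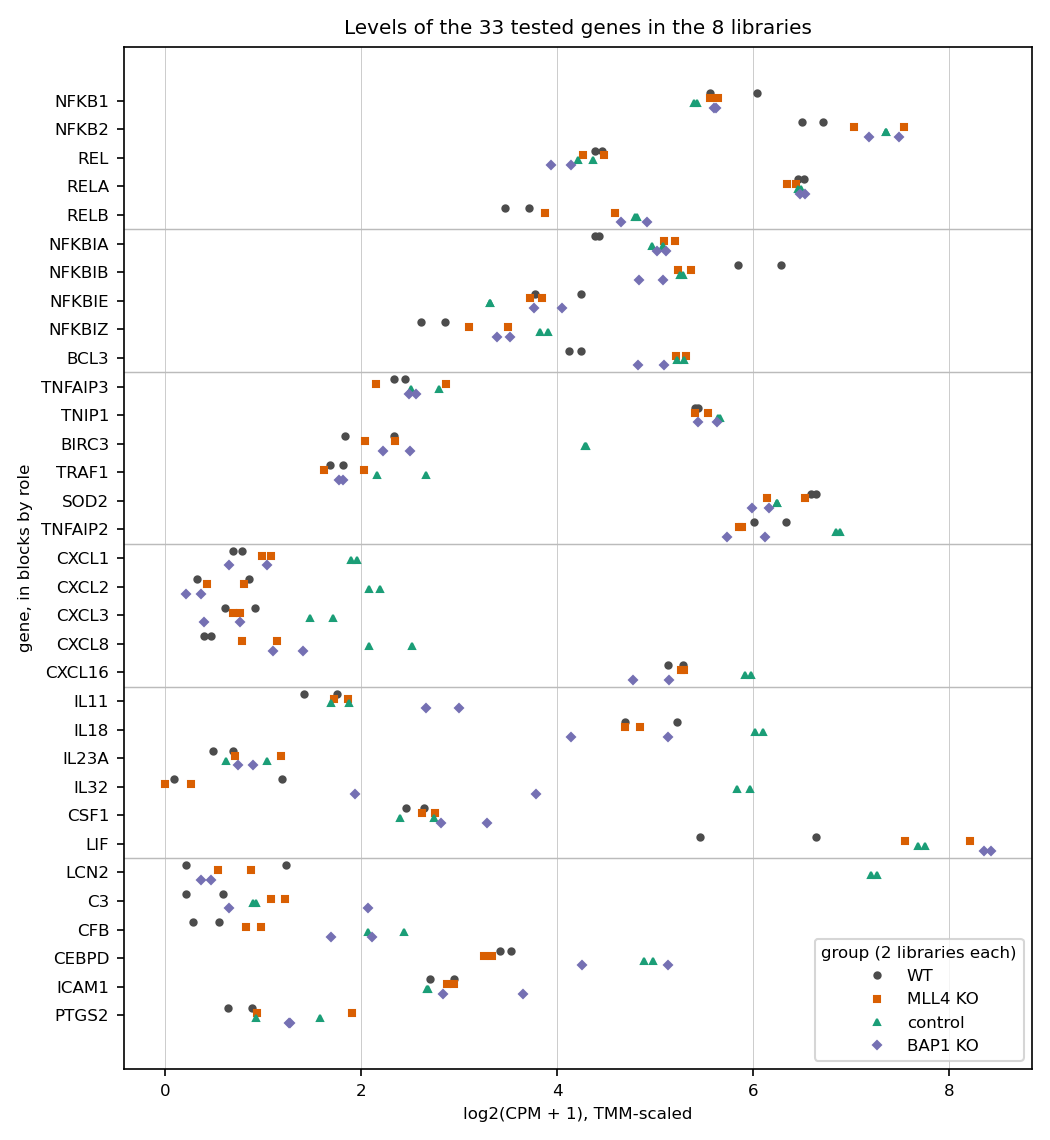
Level of each of the 33 tested genes in the 8 libraries as log2(CPM + 1) (x axis), with genes in blocks by role: Rel subunits, IkB proteins, feedback and survival genes, chemokines, other cytokines, acute phase and effector genes. Each symbol is 1 library; for LCN2, IL32 and BIRC3 both control libraries lie to the right of all others.

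Among the feedback and survival genes, BIRC3 and TNFAIP2 were higher in control and fell in BAP1 KO. BIRC3 encodes cIAP2, a ubiquitin ligase of tumor necrosis factor receptor complexes that protects from cell death, and had 4.03 and 2.56 CPM in the WT libraries, 3.12 and 4.10 in MLL4 KO, 18.5 and 18.7 in control, and 4.66 and 3.67 in BAP1 KO. The 2 control libraries were well above the other 6, which overlapped with each other. BIRC3 was 5.70-fold higher in control than in WT (log2 2.51 ± 0.25, adjusted p = 0.000134) and changed by -2.15 ± 0.24 in BAP1 KO against control (adjusted p = 0.000507). These calls held in all 18 alternatives. In MLL4 KO against WT its interval was -0.49 to 0.76.

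TNFAIP2, a tumor necrosis factor-induced gene linked to membrane protrusions, had 79.6 and 63.2 CPM in the WT libraries, 57.9 and 57.01 in MLL4 KO, 114 and 117 in control, and 68.5 and 52.1 in BAP1 KO. Control was again above the other libraries. It was higher by 0.69 ± 0.16 in control than in WT (adjusted p = 0.00756), a call lost without control replicate 2 (adjusted p = 0.0583), and changed by -0.94 ± 0.16 in BAP1 KO (adjusted p = 0.00348). SOD2, the mitochondrial superoxide dismutase, had 94.96 and 98.7 CPM in the WT libraries, 91.2 and 69.8 in MLL4 KO, 74.6 and 74.9 in control, and 62.5 and 70.5 in BAP1 KO. It was lower in BAP1 KO than in WT (-0.54 ± 0.14, adjusted p = 0.0144), a call lost without BAP1 KO replicate 1 (adjusted p = 0.102). SOD2 lies among overlapping genes (such as WTAP and ACAT2), whose reads cannot be told apart without strand.

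TNFAIP3, TNIP1 and TRAF1 passed in no comparison. TNFAIP3 encodes A20, the ubiquitin-editing brake on the pathway, and had 3.44 to 6.26 CPM over the 8 libraries. Its partner TNIP1 had 41.5 to 49.8 CPM. TRAF1, a signalling adaptor, had 2.07 to 3.07 CPM outside control and 5.33 and 3.46 CPM in control, 0.85 ± 0.31 against WT (adjusted p = 0.0535).

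All 5 tested chemokines were higher in control than in WT and lower in BAP1 KO than in control, and in MLL4 KO against WT their adjusted p-values were 0.101 to 0.967. The CXCL1, CXCL2, CXCL3 and CXCL8 proteins attract neutrophils through CXCR2 and, for CXCL8, also CXCR1. These 4 were low everywhere, with at most 126 reads in a library. In RPKM, reads scaled to transcript length and depth, which allows genes to be compared, they reached 1.21 to 2.43 in control and 0.114 to 0.748 in all other libraries.

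CXCL8, interleukin 8, had 0.388 and 0.312 CPM in the WT libraries, 0.728 and 1.20 in MLL4 KO, 4.74 and 3.23 in control, and 1.66 and 1.14 in BAP1 KO. Control was highest and WT lowest. It was 11.2-fold higher in control than in WT (log2 3.48 ± 0.45, adjusted p = 0.000505) and changed by -1.47 ± 0.34 in BAP1 KO against control (adjusted p = 0.0151). BAP1 KO stayed 4.04-fold above WT (adjusted p = 0.0155). MLL4 KO against WT gave 1.43 ± 0.56 (adjusted p = 0.101).

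CXCL2 had 0.814 and 0.250 CPM in the WT libraries, 0.341 and 0.753 in MLL4 KO, 3.56 and 3.23 in control, and 0.160 and 0.285 in BAP1 KO, from 91 and 126 reads in control and 5 to 25 reads in each other library. It was 6.64-fold higher in control than in WT (adjusted p = 0.00185) and changed by -3.92 ± 0.55 in BAP1 KO against control (adjusted p = 0.00137). The WT libraries differed, so the log2 fold change against WT was 3.74 without WT replicate 1 and 2.05 without WT replicate 2. CXCL1 had 0.620 and 0.719 CPM in the WT libraries, 0.979 and 1.11 in MLL4 KO, 2.90 and 2.72 in control, and 1.05 and 0.570 in BAP1 KO. It was 4.13-fold higher in control than in WT (adjusted p = 0.00204) and changed by -1.76 ± 0.34 in BAP1 KO (adjusted p = 0.00644). CXCL3 had 0.892 and 0.531 CPM in the WT libraries, 0.615 and 0.693 in MLL4 KO, 2.27 and 1.79 in control, and 0.702 and 0.321 in BAP1 KO, with 1.52 ± 0.41 in control against WT (adjusted p = 0.0157) and -1.94 ± 0.43 in BAP1 KO against control (adjusted p = 0.0117). For each of CXCL1, CXCL2 and CXCL3 both control libraries were above all 6 others. The 3 genes are paralogs on chromosome 4. Their transcripts were not compared, so how reads were shared among them is uncertain.

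CXCL16, a membrane-bound ligand of CXCR6 on T cells, had 34.01 and 37.97 CPM in the WT libraries, 38.2 and 37.3 in MLL4 KO, 59.4 and 62.2 in control, and 26.4 and 34.3 in BAP1 KO. Control lay above the other 3 groups, which overlapped. It was 1.69-fold higher in control than in WT (adjusted p = 0.00351) and changed by -1.0 ± 0.15 in BAP1 KO against control (adjusted p = 0.00179), and both calls held in all 18 alternatives. It overlaps MED11 and ZMYND15. Of the BAP1 KO calls, CXCL1 was lost without control replicate 2 (adjusted p = 0.0504), CXCL3 without either control library or BAP1 KO replicate 2 (up to 0.0844) and CXCL8 without control replicate 1 or either BAP1 KO library (up to 0.121). Without BAP1 KO replicate 1 the CXCL3 value was -2.63. Against WT, the control call of CXCL3 was lost without WT replicate 2 or either control library (up to 0.0984), and the BAP1 KO call of CXCL8 without WT replicate 2 or BAP1 KO replicate 1 (up to 0.0953).

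**Figure D4:**
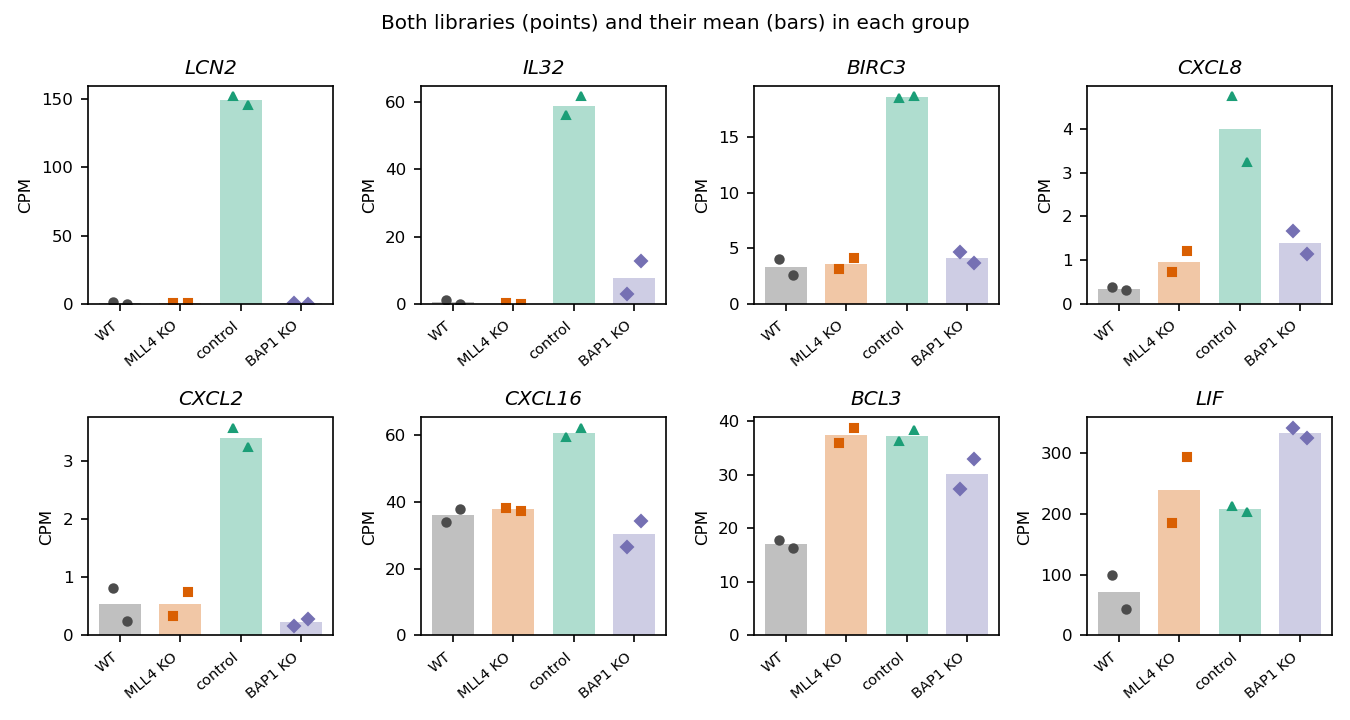
Level in CPM (y axis, a separate scale from 0 in each panel) of LCN2, IL32, BIRC3, CXCL8, CXCL2, CXCL16, BCL3 and LIF, with points for the 2 libraries and bars for the mean of each group. The control bar is the highest in the first 6 of these genes, whereas BCL3 and LIF are lowest in WT.

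Among the other cytokines, IL32 and IL18 were higher in control than in BAP1 KO or WT, IL11 was highest in BAP1 KO, and LIF was lowest in WT. IL32, a cytokine found in primates and lacking in mice, had 1.28 and 0.0625 CPM in the WT libraries, 0.205 and 0 in MLL4 KO, 55.9 and 61.6 in control, and 2.84 and 12.8 in BAP1 KO, from 1427 and 2401 reads in control and 0 to 358 elsewhere. The control libraries were far above the others, and BAP1 KO lay between them and WT, with libraries that differed widely from each other. IL32 was higher in control than in WT by 6.57 ± 0.98 (adjusted p = 0.00327) and changed by -2.93 ± 0.70 in BAP1 KO against control (adjusted p = 0.0319). BAP1 KO against WT gave 3.64 ± 1.07 (adjusted p = 0.0371).

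The size of the IL32 values rested on single libraries. Control against WT was 9.79 without WT replicate 1 and 5.52 without WT replicate 2. The BAP1 KO change was -2.20 without BAP1 KO replicate 1 and -4.37 without BAP1 KO replicate 2. That call was lost in 7 of 18 alternatives, DESeq2 among them (adjusted p = 0.244), and without either control library or BAP1 KO replicate 1 (adjusted p = 0.125, 0.142 and 0.0649). The call against WT was lost in 11 of 18, among them those without WT replicate 2, BAP1 KO replicate 2 or any 1 MLL4 KO or control library (adjusted p up to 0.157), and its value ranged from 2.20 without BAP1 KO replicate 2 to 6.86 without WT replicate 1, with 2.59 without WT replicate 2 and 4.36 without BAP1 KO replicate 1.

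IL18, an interleukin 1 family cytokine made by epithelium, had 36.5 and 24.8 CPM in the WT libraries, 24.8 and 27.8 in MLL4 KO, 67.4 and 63.97 in control, and 16.7 and 34.02 in BAP1 KO. Control was above the rest, and BAP1 KO replicate 2 reached the WT range. IL18 was 2.15-fold higher in control than in WT (adjusted p = 0.0223) and changed by -1.38 ± 0.31 in BAP1 KO (adjusted p = 0.0163). The call against WT was lost without WT replicate 2 or either control library (adjusted p up to 0.141). The BAP1 KO call was lost without either control library or BAP1 KO replicate 1 (up to 0.0919), and its value was -1.98 without BAP1 KO replicate 2.

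IL11, an interleukin 6 family cytokine, had 1.67 and 2.38 CPM in the WT libraries, 2.30 and 2.65 in MLL4 KO, 2.66 and 2.23 in control, and 5.33 and 6.98 in BAP1 KO. Both BAP1 KO libraries were above the other 6. IL11 rose by 1.34 ± 0.27 in BAP1 KO against control (adjusted p = 0.00745) and was higher by 1.58 ± 0.28 against WT (adjusted p = 0.00219). The former call was lost without either control library (adjusted p = 0.0507 and 0.104). In MLL4 KO against WT the IL11 interval was -0.41 to 0.94.

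LIF, another interleukin 6 family cytokine that acts through LIFR and activates STAT3, had 98.9 and 42.9 CPM in the WT libraries, 186 and 295 in MLL4 KO, 214 and 204 in control, and 342 and 326 in BAP1 KO. Both WT libraries were below all others, and they differed widely from each other. LIF was 3.40-fold higher in MLL4 KO (log2 1.76 ± 0.39, adjusted p = 0.027), 2.95-fold in control (adjusted p = 0.0178) and 4.72-fold in BAP1 KO against WT (adjusted p = 0.00454). Without WT replicate 1 these were 2.49, 2.28 and 2.96 on the log2 scale. The MLL4 KO call was lost with no filter on low counts and without any 1 of MLL4 KO replicate 2 and the control libraries (adjusted p = 0.0527 to 0.123), and the control call without either control library (adjusted p = 0.0758 and 0.0698). In RPKM it was the highest of the 41 genes in MLL4 KO and in BAP1 KO, at means of 49.3 and 68.4. LIF-AS1 and LIF-AS2 overlap it, and their reads cannot be told apart without strand. CSF1, the macrophage growth factor, had 4.26 to 8.74 CPM, and IL23A, the p19 subunit of interleukin 23, had 0.406 to 1.26 CPM, and neither passed in any comparison.

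LCN2 had the largest fitted change of the 33 tested genes both in control against WT and in BAP1 KO against control. It encodes lipocalin 2, which starves bacteria of iron by binding their siderophores. It had 1.36 and 0.156 CPM in the WT libraries, 0.842 and 0.452 in MLL4 KO, 152 and 146 in control, and 0.383 and 0.285 in BAP1 KO, from 3884 and 5699 reads in control and 5 to 37 reads in each other library. The control libraries were far above the other 6, which overlapped. At a mean of 139 RPKM it was the highest of the 41 genes in control, against 0.75, 0.629 and 0.323 RPKM in WT, MLL4 KO and BAP1 KO. LCN2 was 211-fold higher in control than in WT (log2 7.72 ± 0.46, adjusted p = 3.03e-05) and changed by -8.78 ± 0.50 in BAP1 KO against control (adjusted p = 4.9e-05). MLL4 KO against WT gave -0.07 ± 0.70 with an interval of -1.67 to 1.54, and BAP1 KO against WT -1.05 ± 0.85 with an interval of -3.01 to 0.90. Against WT the control value was 9.86 without WT replicate 1 and 6.78 without WT replicate 2, and neither call was lost in any alternative.

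CFB and CEBPD were higher in control and BAP1 KO than in WT. CFB, complement factor B, had 0.465 and 0.219 CPM in the WT libraries, 0.774 and 0.964 in MLL4 KO, 4.43 and 3.20 in control, and 2.23 and 3.31 in BAP1 KO. WT was lowest, MLL4 KO next, and control and BAP1 KO overlapped. CFB was 11.3-fold higher in control (adjusted p = 0.000506) and 8.27-fold higher in BAP1 KO than in WT (adjusted p = 0.00134). MLL4 KO against WT gave 1.37 ± 0.57 (adjusted p = 0.118) and BAP1 KO against control -0.45 ± 0.31 (adjusted p = 0.332). CEBPD, a C/EBP transcription factor of the acute phase response, had 9.69 and 10.6 CPM in the WT libraries, 9.13 and 8.52 in MLL4 KO, 28.6 and 30.5 in control, and 18.1 and 34.1 in BAP1 KO. BAP1 KO spread over the control range and below it. It was 2.91-fold higher in control (adjusted p = 0.00195) and 2.57-fold higher in BAP1 KO than in WT (adjusted p = 0.00358), and MLL4 KO was close to WT with an interval of -0.81 to 0.41.

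C3, the central complement component, had 0.504 and 0.156 CPM in the WT libraries, 1.34 and 1.11 in MLL4 KO, 0.862 and 0.897 in control, and 0.574 and 3.21 in BAP1 KO. It passed in BAP1 KO against WT (2.54 ± 0.88, adjusted p = 0.0469) through BAP1 KO replicate 2, without which the value was 0.87 (adjusted p = 0.398). That call was lost in 10 of 17 alternatives, including those without any 1 of the WT, MLL4 KO and control libraries. Its value was 3.53 without WT replicate 1, 1.86 without WT replicate 2 and 3.34 without BAP1 KO replicate 1. ICAM1, the leukocyte adhesion receptor, had 5.38 to 11.6 CPM, and PTGS2, cyclooxygenase 2, had 0.563 to 2.74 CPM. Neither passed in any comparison.

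The genes left out of the tests include the classical proinflammatory cytokines. CCL2 had no read in any library, and a count of 0 allows up to 3 reads. IL6 had 1 read over all 8 libraries, IL1B and CSF2 had 3 each, and TNF and SAA1 had 6 each. CCL20 had 10 reads in each control library and 0 to 4 in the others. IL1A had 11 and 10 reads in control and 0 to 4 in the others. At this depth levels of these 8 genes could not be compared between groups.

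The MLL4 KO effect differed from the BAP1 KO effect, in a test of the difference itself, in 9 of the 33 genes, and it was the higher effect in each of these 9 (all genes 7.75% higher and 8.32% lower). They were NFKBIA, NFKBIZ, BCL3, BIRC3, CXCL1, CXCL2, CXCL8, CXCL16 and LCN2. DESeq2 called 12, of which 11 were higher and 1 lower (all genes 19.5%). For LCN2 the difference was 8.71 ± 0.98 (adjusted p = 0.00201), with an MLL4 KO change of -0.07 ± 0.70 and a BAP1 KO change of -8.78 ± 0.50. For BCL3 it was 1.43 ± 0.20 (adjusted p = 0.00289), with 1.13 ± 0.14 and -0.31 ± 0.14. The count was 3 without control replicate 1 and 4 without control replicate 2 (all genes 4.28% and 4.03%), 4 when MLL4 KO replicate 2 was left out (all genes 9.54%), and 14, of which 3 were lower, when WT replicate 1 was (all genes 26.5%).

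Of 35 genes of IKK and upstream signalling, all tested, 8 were higher and 5 lower in control against WT, 1 rose and 4 fell in BAP1 KO against control, and the 5 called in MLL4 KO against WT fell. These were 37.1%, 14.3% and 14.3% of the list, against 39.6%, 22.4% and 19.1% of all tested genes, shares no higher than the background. In control, TAX1BP1, an A20 adaptor, differed by 1.19 ± 0.12, BCL10, an activator of IKK, by 1.19 ± 0.16, and TRAF2, a receptor adaptor, by -1.33 ± 0.16 from WT. The largest change of the list in control against WT was that of RBCK1, 3.61 ± 0.56 (adjusted p = 0.00421). Its change in BAP1 KO against control, -1.67 ± 0.52, did not pass. In BAP1 KO against control, BCL10 changed by -0.64 ± 0.16 and TRAF5 by -0.95 ± 0.21, and TAB2, which links ubiquitin chains to TAK1, rose by 0.45 ± 0.12. In MLL4 KO, CHUK (the kinase IKK-alpha) changed by -0.81 ± 0.20 and TRAF2 by -0.61 ± 0.15. The median over the list was 0.12, -0.12 and -0.07 in these 3 comparisons. The named changes that passed had adjusted p-values of 0.000161 to 0.0269.

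Of 30 receptors, 21 were tested: 5 were higher and 1 lower in control against WT, 2 rose and 6 fell in BAP1 KO, and 3 rose and 1 fell in MLL4 KO. The shares called were 28.6%, 38.1% and 19.0%, against 39.6%, 22.4% and 19.1% of all tested genes. TNFRSF1A, the main tumor necrosis factor receptor, had 74.95 and 84.6 CPM in the WT libraries, 179 and 205 in MLL4 KO, 148 and 145 in control, and 107 and 108 in BAP1 KO. It rose by 1.27 ± 0.12 in MLL4 KO (adjusted p = 0.00249) and was higher by 0.87 ± 0.12 in control than in WT (adjusted p = 0.000661). OSMR, the oncostatin M receptor, rose by 1.04 ± 0.14 in MLL4 KO (adjusted p = 0.0061). IL1RAP, the shared interleukin 1 co-receptor, was higher by 2.23 ± 0.28 in control than in WT (adjusted p = 0.000411) and changed by -1.64 ± 0.26 in BAP1 KO (adjusted p = 0.00281). LTBR, the lymphotoxin receptor that feeds the noncanonical arm, changed by -0.65 ± 0.11 in BAP1 KO (adjusted p = 0.00321). SLC22A17, named as a receptor of lipocalin 2, rose in both knockouts, by 1.30 ± 0.19 in MLL4 KO (adjusted p = 0.00692) and by 1.24 ± 0.19 in BAP1 KO (adjusted p = 0.00199).

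Of 40 further NF-kB targets, 25 were tested: 13 were higher and 2 lower in control against WT, 4 rose and 8 fell in BAP1 KO against control, and 5 rose and 2 fell in MLL4 KO. These were 60.0%, 48.0% and 28.0% of those tested, against 39.6%, 22.4% and 19.1% of all genes. SLPI, a secreted protease inhibitor of mucosa, had 0.349 and 0.0625 CPM in the WT libraries, 0.478 and 1.08 in MLL4 KO, 8.38 and 9.90 in control, and 0.255 and 0.142 in BAP1 KO. It was higher by 5.56 ± 0.50 in control than in WT (adjusted p = 7.31e-05) and changed by -5.48 ± 0.49 in BAP1 KO (adjusted p = 0.000171). In the same comparison with control, the collagenase gene MMP1 changed by -4.34 ± 0.73 (adjusted p = 0.0014), and the stress gene GADD45B by -1.45 ± 0.21 (adjusted p = 0.00166). PSMB9, an immunoproteasome subunit, rose in both knockouts, by 1.93 ± 0.31 in MLL4 KO (adjusted p = 0.00897) and 2.15 ± 0.28 in BAP1 KO (adjusted p = 0.00111). IRF1, an interferon regulatory factor, was higher than WT in MLL4 KO (0.75 ± 0.16, adjusted p = 0.0176) and in control (1.36 ± 0.16, adjusted p = 0.000304).

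Of 17 partner factors (C/EBP, STAT3 and AP-1 families and their regulators), all tested, the 5 called in control against WT were higher, 2 rose and 1 fell in BAP1 KO against control, and the 6 called in MLL4 KO against WT rose. The shares called were 29.4%, 17.6% and 35.3%, the first and the second below the 39.6% and 22.4% of all tested genes and the third above their 19.1%. STAT3 rose by 1.08 ± 0.17 in MLL4 KO (adjusted p = 0.00865) and KLF5, an epithelial factor, by 2.29 ± 0.39 (adjusted p = 0.0159). SOCS3, the feedback inhibitor of STAT3 signalling, rose by 0.72 ± 0.13 in MLL4 KO (adjusted p = 0.0116) and by 0.75 ± 0.13 in BAP1 KO (adjusted p = 0.00364). CEBPB, CEBPG and ATF3 were higher in control than in WT, by 1.52 ± 0.26, 1.91 ± 0.26 and 2.34 ± 0.35 (adjusted p = 0.0023, 0.000888 and 0.00203). ELF3, an epithelial ETS factor known to work with NF-kB, had 71.04 and 38.8 CPM in the WT libraries, 23.6 and 36.4 in MLL4 KO, 211 and 206 in control, and 26.6 and 51.9 in BAP1 KO and changed by -2.41 ± 0.41 in BAP1 KO against control (adjusted p = 0.00772).

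LCN2 shared its profile most closely with MB, SLPI, MILR1, KLK5 and HKDC1 among the 311 tested genes whose log2(CPM + 1) spanned at least 3 over the 8 libraries. Pearson's r over the 8 libraries was 0.997 for MB (myoglobin), 0.978 for SLPI, 0.974 for MILR1, 0.973 for KLK5 (a kallikrein protease) and 0.969 for HKDC1 (a hexokinase family member). These are descriptions, since the libraries form groups and share their depth and scaling. HKDC1 reached 34.8 and 30.6 CPM in control and at most 3.22 CPM in any other library, and MB 8.66 and 7.64 CPM against at most 0.349 CPM.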

How the data were processed

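RNA-seq libraries of HCT116 were made from poly(A)-selected RNA, 2 per group (8 of 23 samples); the 15 ChIP-seq samples were not analysed here. Per the file headers, each deposited table gives a read count and an RPKM value per RefSeq transcript; the counts are whole and not normalized, and the authors' RPKM values scale reads to transcript length and depth. Per the submitters' processing notes, reads were handled with bcl2fastq, STAR, Bowtie2 and SICER 1.1 and the build hg38, with no role stated. The counter and strand setting were not given in the sources used here. Rows were matched to genes through RefSeq GRCh38.p14, 605 rows without a symbol (0.23% to 0.252% of counts) were left out, and the row with the highest mean count stood for each of 28105 genes.

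The tests used edgeR 4.0.16 in R 4.3.3, with filterByExpr (16831 genes, 0.32 CPM in 2 libraries), TMM, a robust quasi-likelihood fit on all 8 libraries and 5 contrasts, two-sided, with Benjamini-Hochberg adjustment at 0.05. Because the deposited data hold 2 libraries per group, precision is limited, and counts cover 24.8 to 42.2 M reads per library. No RPKM value entered a test. The filter passed 27 of the 33 tested genes in every library, and no gene passed through 1 group alone. Genes called in a comparison are given in every library where the higher group averaged at least 1 CPM, and further lists by counts with up to 3 genes per direction. The members and lists were chosen with earlier results of these data known. Alternatives were DESeq2 1.42.0, upper-quartile and RLE scaling, other filters, a fit on the 4 libraries of a comparison, the replicate number as a block, no robust step, summed rows, each library left out and, chosen after seeing the data, edgeR's legacy dispersion, all run for the 41 genes and not for the further lists.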

Additional observations from a re-analysis of the deposited data

Results flagged for a closer look

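Between MLL4 KO against WT and BAP1 KO against control, the effect on 9 of the 33 tested genes differed in a test of the difference itself (edgeR, 2 libraries per group). These were 27.3% of the 33, against 16.1% called among all tested genes. The difference, MLL4 KO effect minus BAP1 KO effect on the log2 scale, was 8.71 for LCN2 (adjusted p = 0.00201), 1.43 for BCL3 (adjusted p = 0.00289), 2.29 for BIRC3 (adjusted p = 0.00497), 1.07 for CXCL16 (adjusted p = 0.011), 3.97 for CXCL2 (adjusted p = 0.0177), 2.38 for CXCL1 (adjusted p = 0.0178), 2.9 for CXCL8 (adjusted p = 0.0184), 0.73 for NFKBIA (adjusted p = 0.0268) and 1.09 for NFKBIZ (adjusted p = 0.0357). For LCN2, BIRC3, CXCL1, CXCL2, CXCL8 and CXCL16 the BAP1 KO change passed and the MLL4 KO change did not. For NFKBIA and BCL3 the MLL4 KO change passed and the BAP1 KO change did not, and for NFKBIZ neither passed. The 2 effects use different reference groups, WT and control, which themselves differ in each of these 9 genes. The differences for LCN2, BCL3 and BIRC3 passed in every alternative in which the gene was tested, with LCN2 at 10.85 without WT replicate 1 and 7.76 without WT replicate 2. The call was lost for CXCL16 and CXCL1 without either control library (adjusted p up to 0.0656 and 0.0707), and for CXCL1 also without MLL4 KO replicate 2. It was lost for CXCL2 without MLL4 KO replicate 2, either control library or BAP1 KO replicate 1 (up to 0.0875; 3.38 without MLL4 KO replicate 2), and its value was 4.98 without WT replicate 1 and 3.29 without WT replicate 2, both passing. For CXCL8 it was lost without WT replicate 2, MLL4 KO replicate 2, control replicate 1 or BAP1 KO replicate 2 (up to 0.0671). NFKBIA lost it without MLL4 KO replicate 2 or any 1 control or BAP1 KO library (up to 0.146), as did NFKBIZ (up to 0.135), which also lost it without WT replicate 2 and with a replicate block (adjusted p = 0.055).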

How the results depend on the processing

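Of the 60 calls on members in the 5 contrasts, 29 held in every alternative run. In alternatives other than leaving out a single library, 10 were lost. Such alternatives include the fit on only the 4 libraries of a comparison, in which all 5 calls in MLL4 KO against WT ended. With only the 4 libraries of the comparison, MLL4 KO against WT gave 0 called members in place of 5, and 60 calls among all genes (0.367%). Leaving out each library in turn gave 2 to 8 members for MLL4 KO against WT (all genes 2.92% to 31.5%), 6 to 13 in place of 12 for BAP1 KO against control (6.48% to 29.8%), 13 to 22 in place of 20 for control against WT (19.5% to 43.3%), 10 to 14 for BAP1 KO against WT (14 in all libraries; 26.6% to 45.2%) and 3 to 14 in place of 9 for the difference of the effects (4.03% to 26.5%). The share called over all genes thus moved with the library left out too, and the cause was not tested. No call changed direction. With the replicate number as a block (replicate block) the counts were 5, 12, 20, 13 and 8 in these contrasts. The shares over all genes were then 14.0%, 19.7%, 36.8%, 38.9% and 13.0%, against 19.1%, 22.4%, 39.6%, 41.6% and 16.1% without the block. Same-numbered libraries did not deviate together (r = -0.189 for WT and MLL4 KO, -0.001 for control and BAP1 KO). With 2 libraries per group this gave no sign of pairing by number, but it cannot exclude pairing. Among the changes called with all libraries, those of LCN2, IL32, CXCL2, CXCL3, IL18, LIF and C3 moved by over 1.5-fold when a library was left out. Their values stand beside each gene above. Changes that did not pass with all libraries were not followed in this way. CXCL1, CXCL2, CXCL3 and CXCL8 rest on 5 to 126 reads per library.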
